A study of Rattus norvegicus with 8 samples.

Results

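Protein phosphatase 1 is a serine/threonine phosphatase, and the genes described here encode its 3 catalytic subunits (Ppp1ca, Ppp1cb and Ppp1cc), its inhibitors 1 and 2 (Ppp1r1a and Ppp1r2) and a pair of subunits that tether it to glycogen (Ppp1r3b and Ppp1r3c). The members are all probe sets whose single gene symbol in the platform annotation is one of these 7 symbols. They came to 10 of the 31099 probe sets on the array and to 6 of the 7 genes, with 3 probe sets for Ppp1r2, 2 each for Ppp1r1a and Ppp1r3b, and 1 each for the catalytic subunits. No probe set carried Ppp1r3c as its single symbol, so this gene has no expression value here. The set was chosen by differences between the groups already seen on these arrays, above all that of Ppp1r2, so the members' group differences are given as a description with no test of their own.

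RNA came from the tibialis anterior, a fast-twitch hind limb muscle, of 8 adult Sprague-Dawley rats with a starting weight of 200 ± 40 g. The hyperthyroid group held 4 rats, replicates 1, 2, 3 and 5, given triiodothyronine (T3, the active thyroid hormone) into the peritoneum for 6 weeks, at 25 µg for each 100 g of weight once in 2 days, and killed 24 hours after the last dose. The control group held 4 untreated rats, replicates 7, 8, 9 and 11. No vehicle injection is stated for them, so injection as such cannot be taken as matched between the groups. Each group had 3 males and 1 female, the labels do not say on which arrays the females are, and 1 Affymetrix array was made per rat.

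Protein phosphatase 1 works as a catalytic subunit bound to one of many regulatory subunits, which set where it acts and on what. In skeletal muscle it is best known for removing phosphate from glycogen synthase, glycogen phosphorylase and phosphorylase kinase, which favours glycogen storage. Inhibitor 1 blocks the enzyme once protein kinase A has phosphorylated it, while inhibitor 2 holds the catalytic subunit in an inactive complex that glycogen synthase kinase 3 can switch on again.

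The sequence before Ppp1r2, the member with the largest difference among the kept probe sets, is shown beside that of Ppp1ca, a catalytic subunit whose groups overlapped. Both are the 250 bases before the annotated start, from RefSeq (assembly GRCr8, plus strand, chr11:82977384-82977633 and chr1:210914326-210914575), and capitals mark GGGCGG or its reverse complement, the core of the GC box that Sp1-type factors bind.
Ppp1r2: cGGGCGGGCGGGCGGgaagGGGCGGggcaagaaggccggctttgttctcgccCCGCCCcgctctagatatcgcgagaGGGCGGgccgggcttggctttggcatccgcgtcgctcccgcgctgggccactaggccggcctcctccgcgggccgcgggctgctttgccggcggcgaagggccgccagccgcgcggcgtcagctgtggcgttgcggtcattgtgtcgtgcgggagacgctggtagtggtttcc
Ppp1ca: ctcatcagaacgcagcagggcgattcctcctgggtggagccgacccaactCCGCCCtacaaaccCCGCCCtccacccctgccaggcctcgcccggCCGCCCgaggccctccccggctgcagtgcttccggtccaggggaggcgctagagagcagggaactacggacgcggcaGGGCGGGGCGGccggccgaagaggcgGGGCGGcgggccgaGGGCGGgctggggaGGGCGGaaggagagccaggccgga
Both windows are rich in G and C, at 74.0% and 75.2% beside a median of 51.2% over 33469 promoters. They hold 6 and 8 matches on both strands together, some overlapping, while 30.5% of all promoters hold at least 1. Of the 5 members with an entry, 4 held a match, the exception being Ppp1r3c. The letters AGGTCA, the half-site that thyroid hormone receptors bind, were in 0 of these 5 windows on either strand and in 14.1% of all promoters, and no match says only that these letters are not in this window.

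Values are intensities on a linear scale, to which the authors' software had given the same trimmed mean on every array. Array medians ran from 38.8 to 42.0 in the hyperthyroid and from 43.5 to 54.9 in the control group. Over the probe sets kept, the first principal component set control replicate 11 (94.5) apart from the other arrays (-25.3 to 23.8). The second did the same for control replicate 9 (-86.9, against -8.94 to 26.9). Control replicates 7 and 11 also carried far more of the slow myosin transcript Myh7 (5570 and 2692) than the other 6 arrays (5.83 to 169). The summed intensity of 8 defining transcripts of skeletal muscle fibres was 235110 to 285456 in the hyperthyroid and 288144 to 338952 in the control group. Taken singly, 7 of the 8 had a log2 fold change below 0 and 4 separated the groups, while Pvalb gave 0.22. The 8 slow-fibre transcripts summed to 1394 to 8919 and 4504 to 43137, and the sums of nerve (3 of 7 markers measured), smooth muscle (5 of 5), endothelial (4 of 5), fat (4 of 6), macrophage (5 of 6) and erythroid markers (3 of 4) overlapped between the groups. In whole muscle, fewer cells of a type and less RNA per cell cannot be told apart. The 3'/5' signal ratio of Gapdh, a measure of RNA integrity, was 1.20 to 1.31 on hyperthyroid and 1.33 to 1.46 on control arrays (two-sided exact permutation p = 0.0286, the lowest value possible for 4 against 4 arrays). The same ratio of beta-actin overlapped, at 1.43 to 1.90 on hyperthyroid and 1.48 to 2.16 on control arrays (two-sided exact permutation p = 0.314). The part of these array differences in the results below was not tested.

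The gene-wide comparison is the frame for the members. With each gene represented by its brightest probe set, 7 of 10194 genes were called higher in the hyperthyroid group (0.0687%) and 0 were called lower (0%), at a limma adjusted p under 0.05. Among the 6 member genes tested, 1 was called, Ppp1r2. That call was lost when the probe sets of a gene were averaged (log2 fold change 0.42), with no variance trend, without both control replicates 7 and 11, and on leaving out any single array other than control replicate 11. At an unadjusted limma p under 0.05, 549 genes were higher (5.39%) and 531 lower (5.21%), with 1 member in each direction, Ppp1r2 and Ppp1r1a. All hyperthyroid arrays lay on one side of all control arrays for 668 genes (6.55%), among them these same 2 members. Since this contrast chose the set, nothing is read from these shares for the members.

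**Figure D1:**
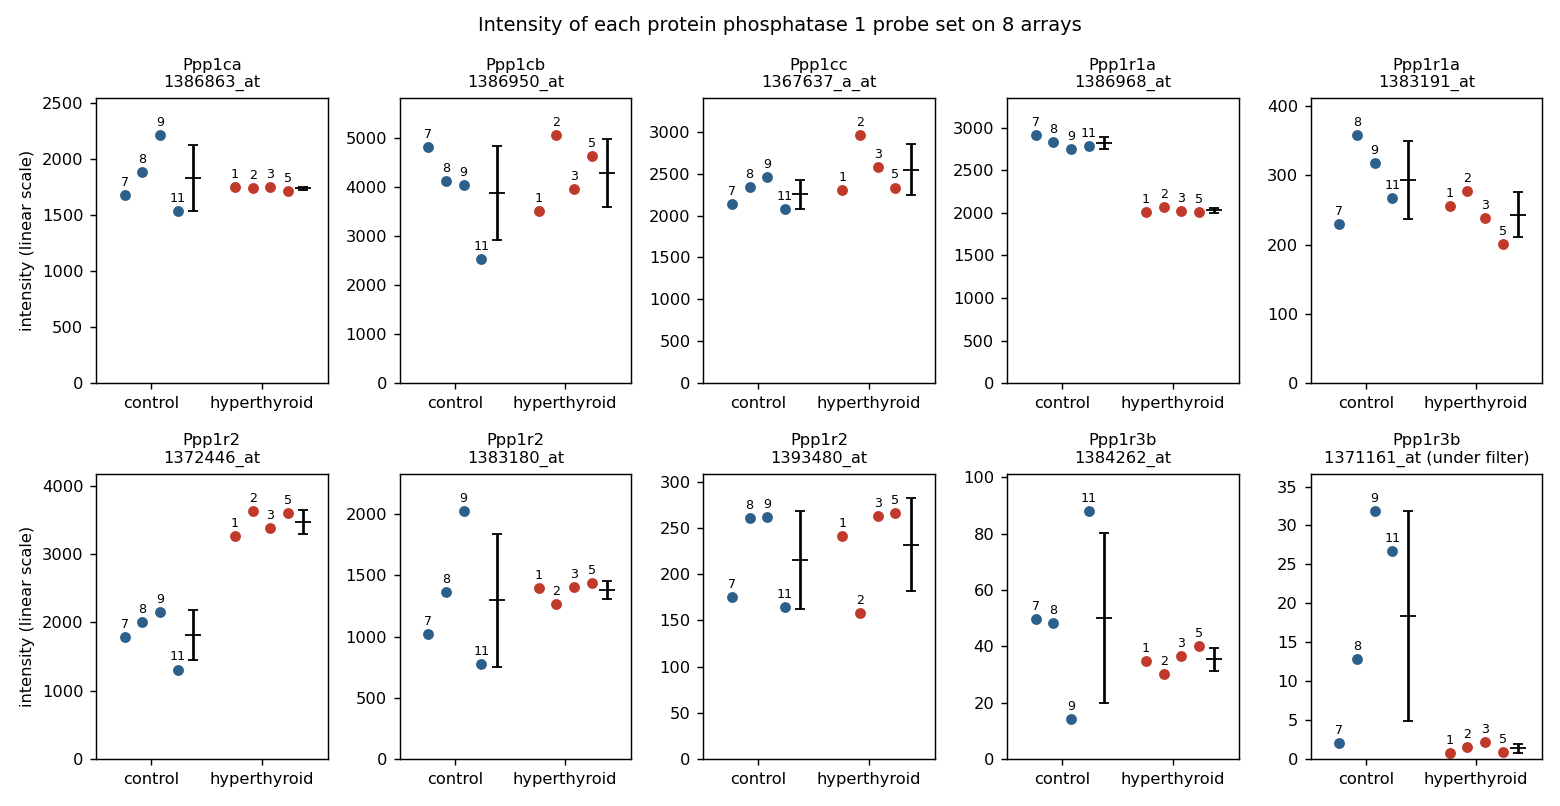
Intensity (linear scale, each panel with its own axis from 0) of the 10 probe sets on the 4 control arrays (blue) and 4 hyperthyroid arrays (red), with the replicate number above each point and the mean ± SD beside each group. The groups separate for 1 probe set of Ppp1r1a (2008 to 2066 against 2747 to 2911) and 1 of Ppp1r2 (3257 to 3633 against 1309 to 2145), and overlap for the other 8.

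The catalytic subunits, which carry the active site, overlapped between the groups. Ppp1ca, the alpha subunit, was at 1748, 1736, 1747 and 1712 on hyperthyroid replicates 1, 2, 3 and 5, while control replicates 7, 8, 9 and 11 read 1675, 1882, 2210 and 1532. All 4 hyperthyroid values lay close together, inside the wider control range. The means were 1736 ± 16.7 and 1825 ± 294 (SD over 4 arrays each). On the log2 scale the difference, hyperthyroid minus control, was -0.06 ± 0.14 (limma standard error). It was -0.23 without control replicates 7 and 11.

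Ppp1cb, the beta subunit and the partner of the myosin phosphatase targeting subunits, was at 3512, 5059, 3961 and 4632 on hyperthyroid arrays and at 4825, 4131, 4035 and 2538 on control arrays, in the same order of replicates. The groups overlapped, and control replicate 11 was the lowest of the 8 arrays. The log2 fold change was 0.17 ± 0.19, and it was -0.023 without control replicate 11. Ppp1cc, the gamma subunit, was at 2300, 2958, 2582 and 2334 on hyperthyroid and at 2139, 2337, 2454 and 2083 on control arrays. Hyperthyroid replicates 2 and 3 lay above all controls and the other two among them, with a log2 fold change of 0.17 ± 0.13.

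Inhibitor 1, encoded by Ppp1r1a, was lower on every hyperthyroid array in 1 of its 2 probe sets. Its brighter probe set, 1386968_at, was at 2008, 2066, 2022 and 2012 on hyperthyroid replicates 1, 2, 3 and 5, while control replicates 7, 8, 9 and 11 read 2911, 2830, 2747 and 2780. The gap between the highest hyperthyroid and the lowest control array was 681, several times the range within either group. The means were 2027 ± 26.7 and 2817 ± 71.3 (SD over 4 arrays each), a ratio of 0.72, with a log2 difference of -0.47 ± 0.11. It was -0.25 after centring on array medians and -0.15 after scaling to hybridization controls, which moved the median of all genes to 0.22 and 0.32.

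The spread of this probe set within the groups was very small. A small spread makes it easier for groups to separate, so it is not independent of the choice of members and is given as a description. Its coefficient of variation was 1.32% over hyperthyroid and 2.53% over control arrays. The pooled within-group SD of its log2 values was 0.029, and 0 of the 18608 probe sets kept by the filter on low values had a smaller one. The standard error of 0.11 is larger than this spread alone would give, because limma draws the variance of each probe set toward that of others at its level.

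The other probe set of Ppp1r1a, 1383191_at, was dimmer and less regular. It was at 256, 277, 238 and 200 on hyperthyroid and at 230, 358, 317 and 267 on control arrays. Its groups overlapped, with control replicates 7 and 11 below hyperthyroid replicate 2. Control replicate 7, the highest control in the brighter probe set, was the lowest here. The log2 fold change was -0.26 ± 0.20, in the same direction as the brighter probe set. The mean intensity differed from that of the controls by -28.0% in the brighter and -17.1% in the dimmer probe set.

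Inhibitor 2, encoded by Ppp1r2, was higher on every hyperthyroid array in 1 of its 3 probe sets. The brightest, 1372446_at, was at 3257, 3633, 3387 and 3602 on hyperthyroid replicates 1, 2, 3 and 5, while control replicates 7, 8, 9 and 11 read 1781, 2005, 2145 and 1309. The lowest hyperthyroid array lay 1112 above the highest control. The means were 3470 ± 179 and 1810 ± 366 (SD over 4 arrays each), with a log2 difference of 0.96 ± 0.15 or 1.95-fold. Control replicates 7 and 11 were the lowest controls, and without both of them the log2 fold change was 0.74. When single probe sets were tested in place of genes, 6 of 18608 were called (0.0322%) and no member was among them.

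The 2 dimmer probe sets of Ppp1r2 did not separate the groups. Probe set 1383180_at was at 1398, 1269, 1403 and 1438 on hyperthyroid and at 1017, 1364, 2027 and 773 on control arrays. The hyperthyroid arrays lay within 1.13-fold of each other, while the controls spanned a 2.62-fold range around them, with control replicate 9 highest and control replicate 11 lowest. The log2 fold change was 0.18 ± 0.23, and it was -0.27 without control replicates 7 and 11. Probe set 1393480_at was at 241, 158, 263 and 266 on hyperthyroid and at 175, 260, 262 and 165 on control arrays. Its log2 fold change was 0.11 ± 0.24, and it was -0.20 without control replicates 7 and 11. In this probe set hyperthyroid replicate 2, the highest array in the brightest probe set, was the lowest of all 8.

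**Figure D2:**
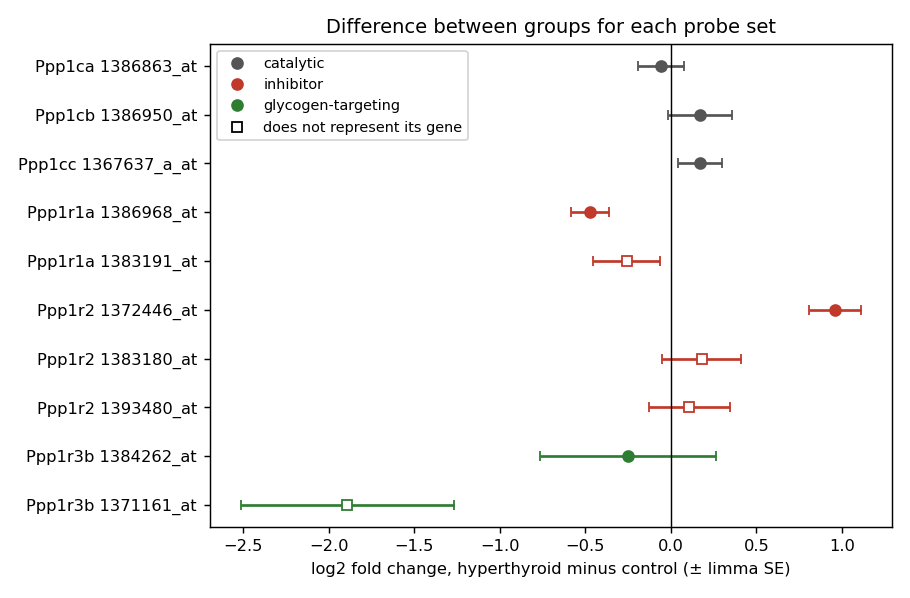
Log2 fold change (hyperthyroid minus control) of the 10 member probe sets with the limma standard error, coloured by role. Filled circles mark the probe set that represents its gene. The brightest probe set of Ppp1r2, at 0.96, lies apart from the other two of its gene, at 0.18 and 0.11, while the bars of the Ppp1r1a pair, at -0.47 and -0.26, meet.

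Ratios of 2 probe sets on the same array do not depend on the factor by which an array was scaled, and a change in such a ratio shows unequal change of its parts. The brightest probe set of Ppp1r2 stood at 2.33 to 2.86 times the second on hyperthyroid arrays and at 1.06 to 1.75 times on control arrays, with no overlap. Against the dimmest probe set the ratios were 12.9 to 23.0 and 7.70 to 10.2, again with no overlap. The second and the dimmest kept a ratio of 6.15 ± 1.28 (SD, hyperthyroid) and 5.87 ± 1.32 (SD, control), with ranges that overlapped. Within Ppp1r2, the brightest probe set thus did not change alike with the other 2. It is the probe set whose groups already separated, so nothing further is read from the missing overlap of its ratios. Which part of the transcript each probe set reads is not given in the sources used here.

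The ratio between the 2 inhibitors differed more than either alone, which follows from their opposite directions. The ratio of Ppp1r2 to Ppp1r1a, each by its brightest probe set, was 1.62, 1.76, 1.68 and 1.79 on hyperthyroid replicates 1, 2, 3 and 5, while control replicates 7, 8, 9 and 11 gave 0.61, 0.71, 0.78 and 0.47. The groups were separated by more than the range within either, and the difference was 1.44 on the log2 scale. Because different probes bind with different strength, the ratio itself is no measure of how much of one inhibitor there was against the other.

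By its brightest probe set, each inhibitor also changed relative to all 3 catalytic subunits. The ratio of Ppp1r2 to Ppp1ca was 2.00 ± 0.12 in the hyperthyroid and 0.99 ± 0.10 in the control group (SD, n = 4 each), and the log2 difference was 1.02 against Ppp1ca and 0.79 against both Ppp1cb and Ppp1cc. The ratio of Ppp1r1a to Ppp1ca was 1.17 ± 0.018 against 1.57 ± 0.26, with log2 differences of -0.42, -0.64 and -0.65 against Ppp1ca, Ppp1cb and Ppp1cc. None of these 6 ratios overlapped between the groups. Their numerators are the member probe sets whose groups already separated, so nothing further is read from this. The ratios of Ppp1cb and Ppp1cc to Ppp1ca overlapped, with log2 differences of 0.23 each. The dimmer probe sets of the inhibitors did not enter these ratios. Those of Ppp1r2, with log2 fold changes of 0.18 and 0.11, lay near Ppp1cb and Ppp1cc at 0.17. That of Ppp1r1a, at -0.26, had groups that overlapped.

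**Figure D3:**
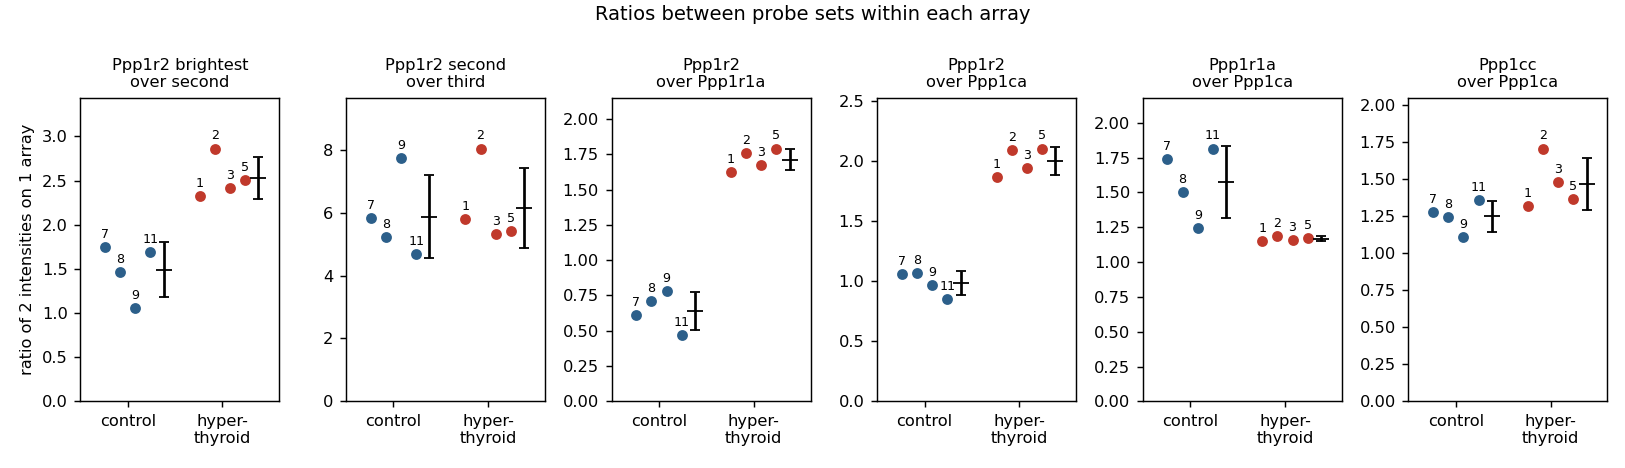
Ratio of 2 intensities on the same array (each panel with its own axis from 0) for the 4 control (blue) and 4 hyperthyroid arrays (red), with replicate numbers and mean ± SD. The ratio of Ppp1r2 to Ppp1r1a is 1.62 to 1.79 on hyperthyroid and 0.47 to 0.78 on control arrays, whereas the ratios of the second to the dimmest Ppp1r2 probe set and of Ppp1cc to Ppp1ca overlap.

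Ppp1r3b, a glycogen-targeting subunit first known from liver, gave weak signals. Its kept probe set, 1384262_at, was at 34.7, 30.2, 36.5 and 40.2 on hyperthyroid and at 49.7, 48.3, 14.3 and 88.1 on control arrays. The controls spanned a 6.18-fold range on both sides of the hyperthyroid arrays, and the log2 fold change of -0.25 ± 0.52 was 0.35 without control replicates 7 and 11. The other, 1371161_at, lay under the filter on low values, at 0.77 to 2.15 on hyperthyroid and at 2.05, 12.8, 31.8 and 26.8 on the controls in their order. The hyperthyroid values lie under the 10th percentile of all values (3.41), and the log2 fold change of -1.89 ± 0.62 moved between -2.94 and -1.03 with the treatment of low values. Control replicate 9 was the lowest control in the first probe set and the highest in the second, so they ranked the controls differently.

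The control arrays varied more than the hyperthyroid arrays in most members. Of the 9 probe sets kept, 8 had a larger SD of log2 values over the controls, the exception being that of Ppp1cc. The same held for 59.7% of all 18608 probe sets kept. Without control replicate 11 it held for 6 of the 9 members and 51.5% of all, and without control replicate 9 for 8 members and 53.7%. Control replicate 11 was the lowest control in 6 of the 9 probe sets, those of the catalytic subunits and of Ppp1r2, and in 27.1% of all. The members share these arrays, so their counts are not independent of each other.

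The other regulatory genes of the phosphatase were read from 4 lists of inhibitors, glycogen-targeting, myosin phosphatase and further regulatory subunits, 42 genes in all. Of these, 28 were tested, and 0 were called in either direction by limma. At an unadjusted p under 0.05 there was 1 higher and 0 lower. Their median log2 fold change was -0.064, beside -0.00067 over all genes tested, with 13 above 0 and 15 below.

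Among further inhibitors, 4 of 8 were tested and none stood out. Ppp1r11, called inhibitor 3, gave a log2 fold change of -0.24 ± 0.21, and Ppp1r14a and Ppp1r14b, inhibitors of the myosin phosphatase family, gave -0.34 ± 0.32 and -0.08 ± 0.16. The other kept probe set of Ppp1r14b gave 0.91. Without control replicates 7 and 11, Ppp1r11, Ppp1r14a and Ppp1r14b gave -0.12, -0.015 and -0.21. The muscle glycogen-targeting subunit Ppp1r3a, the main one of its kind in this tissue, was at 3233 to 3607 on hyperthyroid and 3081 to 4049 on control arrays, with a log2 fold change of -0.10 ± 0.12, or -0.21 without control replicates 7 and 11. Ppp1r3d, another glycogen-targeting subunit, gave -0.51 ± 0.30, and its other kept probe set -0.33.

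The myosin phosphatase targeting subunits Ppp1r16b, Ppp1r16a and Ppp1r12a gave -0.65 ± 0.40, -0.39 ± 0.28 and -0.19 ± 0.24, all with overlapping groups. Without control replicates 7 and 11 they gave -0.10, -0.18 and 0.16. The other kept probe sets of Ppp1r12a gave -0.48, -0.21 and 0.016. Of the remaining regulatory and scaffold genes, Wdr82, part of a nuclear phosphatase complex with Tox4, was at 319 to 436 on hyperthyroid and 194 to 292 on control arrays, without overlap. It gave 0.53 ± 0.18 and was not called (limma adjusted p = 0.335). Tox4 gave 0.42 ± 0.26 and its other kept probe set -0.54. Without control replicates 7 and 11, Tox4 gave 0.19 and Wdr82 0.58. Ppp1r8, a nuclear inhibitor also called NIPP1, gave -0.28 ± 0.16.

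Genes of glycogen metabolism, a list that includes known targets of the phosphatase, lay mostly above 0. This was less marked without control replicates 7 and 11, the arrays rich in slow-fibre transcripts, and the reason was not tested. Of 15 listed, 12 were tested, 10 had a log2 fold change above 0, and the median was 0.24 beside -0.00067 over all genes. Without those 2 controls 7 of the 12 lay above 0 and the median was 0.017. None was called on all 8 arrays, and 2 had an unadjusted limma p under 0.05, both higher. Phka1, a muscle subunit of phosphorylase kinase, was at 3693 to 4339 on hyperthyroid and 2148 to 3955 on control arrays, with a log2 fold change of 0.50 ± 0.18 (limma adjusted p = 0.361), and its other probe set gave 0.45. Gys1, the muscle glycogen synthase, gave 0.55 ± 0.22 (limma adjusted p = 0.420) and Pgm1, a phosphoglucomutase, 0.30 ± 0.16 (limma adjusted p = 0.534). All 3 had groups that overlapped. Without control replicates 7 and 11, Phka1 gave 0.14, Pgm1 0.0059 and Gys1 0.70.

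A list of kinases linked to the inhibitors or to glycogen enzymes, regulatory subunits of kinases among them, gave a median of -0.045 over 16 tested genes. Of these genes 0 were called, and 2 had an unadjusted limma p under 0.05, both higher. The 2 were Akt1 and Akt2, kinases of insulin signalling, at 0.58 ± 0.18 and 0.58 ± 0.19 (limma adjusted p = 0.296 and 0.311). Both had groups that did not overlap. Their other kept probe sets did not move alike, giving 0.39 and -0.44 for Akt1 and 0.18, -1.37 and 0.35 for Akt2. Csnk2a2, a catalytic subunit of casein kinase 2, which phosphorylates inhibitor 2, gave -0.38 ± 0.17, and its other kept probe sets 0.15, -0.47 and 0.12. Without control replicates 7 and 11 the median of this list was 0.12, and Akt1 and Akt2 gave 0.75 and 0.37. Protein kinase A's catalytic subunit Prkaca and glycogen synthase kinase Gsk3b, added for their roles after their values were seen, gave -0.16 ± 0.19 and -0.02 ± 0.30.

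The catalytic subunits of other serine/threonine phosphatases had, over 9 genes, a median of -0.031 on the log2 scale. None was called, and 0 had an unadjusted limma p under 0.05. The smallest p-values belonged to Ppm1a at 0.48 ± 0.25, Ppm1b at -0.20 ± 0.16 and Ppp4c at 0.51 ± 0.54. The other kept probe sets of Ppm1b gave 0.43 and -0.24, so they did not share a direction. Without control replicates 7 and 11 Ppm1a gave 0.17, Ppm1b -0.40 and Ppp4c 0.25.

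**Figure D4:**
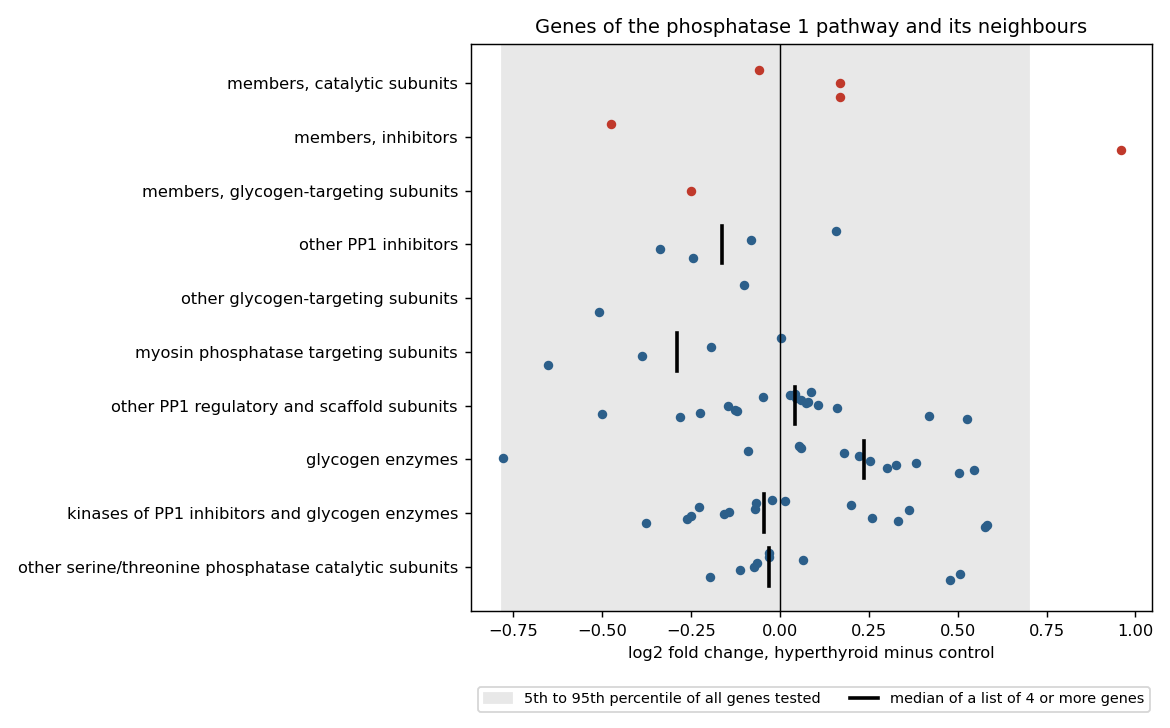
Log2 fold change (hyperthyroid minus control) of each tested gene by list, with members in red, other genes in blue, a black bar at the median of each list of at least 4 genes, and a grey band from the 5th to the 95th percentile of all genes (-0.78 to 0.70). Ppp1r2, at 0.96, is the one gene plotted to the right of the band.

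Most like the brightest Ppp1r2 probe set in log2 values over the 8 arrays were Plekha3, Ccdc6, Ube2d1, Pcyox1 and Thrsp. Their Pearson r was 0.976, 0.976, 0.973, 0.973 and 0.967. Thrsp is a known thyroid hormone-responsive gene of lipogenesis, and Ube2d1 is a ubiquitin-conjugating enzyme. All 5 were higher in the hyperthyroid group, by log2 0.69, 0.72, 1.00, 1.29 and 1.68, without overlap (6.55% of all genes, either direction). Likeness to a probe set that separates the groups favours this, so nothing is read from it. Of the 5, 1 was called, Pcyox1, beside 0.0687% of all genes called higher. Most like the brighter Ppp1r1a probe set were Abhd14b, Mrpl58, Mblac1, Tmem42 and Ctps2, with r of 0.961, 0.958, 0.955, 0.951 and 0.948. Their log2 fold changes were -0.81, -0.50, -0.72, -0.47 and -0.47, likewise without overlap. These coefficients are a description over 8 arrays that fall into 2 groups, so the step between the groups enters each of them.

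Levels of abundant transcripts differed between the groups, which bears on bright probe sets. The 100 brightest probe sets held 21.8 to 24.4% of the signal on hyperthyroid and 25.9 to 27.9% on control arrays (exact permutation p = 0.0286, two-sided). Among the 341 genes with a mean log2 level within 0.5 of that of Ppp1r1a, the median log2 fold change was 0.027, and among the 339 within 0.5 of Ppp1r2 it was 0.026. The part of this difference between the arrays in the values of the inhibitors was not tested. After quantile normalization, which gives all arrays one distribution, Ppp1r1a gave -0.50 and Ppp1r2 0.95. Centring on array medians gave -0.25 and 1.18, with the median of all genes at 0.22. Scaling to the hybridization controls gave -0.15 and 1.28, with that median at 0.32.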

How the data were processed

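Each deposited value is an intensity (linear, 1 per probe set and array) from GCOS, per the submitters' processing notes; the software's version is not given in the sources used. Their mean after leaving out 2% at each end was 150.1 on every array, which removes any difference in total RNA. The labels give 1 rat per array, and no scanner values were used. Of 31099 probe sets, 57 controls were left out of the tests, 20826 others carried 1 gene symbol, 436 several and 9780 none.

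Values were analysed as log2(intensity + 3.41), the 10th percentile of all values being the pseudocount, so fold changes understate the change of dim transcripts. The 18608 probe sets with a mean log2 value above the 40th percentile (4.69) were tested with limma 3.58.1 in R 4.3.3 (lmFit, then eBayes with a variance trend, two-sided, Benjamini-Hochberg over all, threshold 0.05), and 10194 genes by their kept probe set of highest mean. Standard errors and fold changes of a member probe set under the filter come from the fit with no filter. The procedure was tested on simulated data. The number of arrays limits the precision.

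The members and lists were chosen with earlier results of these data known. Named are all members, each list's 3 genes of smallest p, and the 5 genes most like each inhibitor's brightest probe set. Other genes named are markers or were chosen after their values were seen. Alternatives covered normalization, pseudocount, filter, variance model, probe set summary, threshold and arrays left out. The values of the lists and their named genes under other scalings and without control replicates 7 and 11 were added after seeing the data.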

Additional observations from a re-analysis of the deposited data

Results flagged for a closer look

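Of 60 groups of 4 arrays examined, over the member probe sets and the named pathway genes, 1 held an array far from the others. Ppp1r16a, a targeting subunit of the myosin phosphatase family, was at 72.2 on control replicate 8, against 116 to 127 on the other 3 controls. Chance marks about 1 in 20 such groups.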

How the results depend on the processing

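No paired analysis was possible because the groups share no replicate number. Ppp1r2 was higher in the hyperthyroid group under all 22 alternatives and was called under 10. Its log2 fold change ran from 0.42 (mean of its probe sets) to 1.28 (scaled to 18 hybridization controls). Apart from those that average probe sets, the alternatives refit its brightest probe set, whose group difference entered the choice of the set. Nothing further is therefore read from the shared sign. Taken singly, probe sets 1383180_at and 1393480_at stayed above 0 in 12 of 14 alternatives each, with lowest values of -0.27 and -0.20. Member genes called numbered 0 (with 2 at an unadjusted limma p under 0.05) with no variance trend, at an adjusted p under 0.01, with kept or all probe sets averaged, and without both control arrays 7 and 11, and 0 to 1 with 1 array left out, the call holding only without control replicate 11. Genes called overall numbered 7, and 12 after centring on array medians, 115 scaled to hybridization controls, 11 with no filter, 14 with a robust variance, 0 with no variance trend (976 at an unadjusted p under 0.05), 1 with either average of probe sets, 1 at 0.01, 3 without control arrays 7 and 11, and 0 to 7 with 1 array left out. Without hyperthyroid replicate 3 there were 0 (824 unadjusted), and without control replicate 7 there was 1. Of the 14 called with a robust variance, 10 were higher. Single probe sets called numbered 6, and 18, 118, 16, 22 and 0 under the first 5 of these, 10 with array weights, 1 at 0.01, 1 without control arrays 7 and 11, and 0 to 5 with 1 array left out. Centring and hybridization scaling moved the median of all genes to 0.22 and 0.32. Beside these, Ppp1r1a gave -0.25 and -0.15, and it stayed below 0 and uncalled under all 22. Under hybridization scaling the dimmer probe set of Ppp1r1a gave 0.063. Without control replicate 11 the 2 dimmer probe sets of Ppp1r2 gave -0.037 and -0.0088. Ppp1ca turned to 0.16 and 0.26 under those scalings and to 0.038 without control replicate 9. It was -0.23 without control replicates 7 and 11, where Ppp1cb gave 0.058 and Ppp1cc 0.079. Ppp1r3b turned to 0.082 without control replicate 11. Neither Ppp1ca nor Ppp1r3b was called under any alternative. The glycogen genes' median was 0.46 and 0.56 under centring and hybridization scaling. Without control arrays 7 and 11, in values added after seeing the data, the medians of the myosin phosphatase list and of the other regulatory subunits were 0.029 and -0.00080. The cause of these shifts was not tested.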
